A study of Mus musculus with 12 samples.

Results

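Aminoacyl-tRNA synthetases attach each amino acid to its transfer RNA (tRNA), and 37 genes of this machinery were followed through the differentiation of C2C12 cells, a mouse myoblast line, into myotubes. The 37 were taken from a list of symbols and comprise 20 genes of cytosolic synthetases, 2 of the scaffold proteins that hold several of these enzymes together, and 15 of mitochondrial synthetases, out of 55385 genes in the count table. Of the listed symbols 36 were found as written, and Mars1 was matched to the row named Mars, an older symbol in the RefSeq gene table. The mitochondrial leucyl gene Lars2 is left off the list as a collector of reads resembling ribosomal RNA, which was not examined here. The series measured small RNAs in embryonic stem cells with and without retinoic acid, not used here, and total RNA in C2C12 cells. The C2C12 part had 3 libraries of myotubes, made after 7 days of differentiation, and 3 of undifferentiated myoblasts, all of the same cell line with no genetic change named in the labels. The labels do not say whether the 3 libraries of a group are separate cultures. P-values therefore measure only the spread between these libraries, which may be technical.

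Synthetases as a rule recognise a single amino acid and its tRNAs, spend ATP to activate the amino acid, and so set the accuracy and the supply of building blocks for the ribosome. For most amino acids cells keep separate enzymes for the cytosol and for the mitochondrial matrix, where a few proteins of the respiratory chain are made, and the genes of both kinds lie in the nucleus. In the cytosol, several synthetases and the scaffold proteins form the multi-synthetase complex, while others are free or bind elongation factors. Many cytosolic synthetase genes are known targets of ATF4, the transcription factor of the amino acid response. In muscle, antibodies against the histidyl enzyme mark a human inflammatory myopathy, and human mutations in mitochondrial synthetases can cause myopathy or cardiomyopathy.

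Library totals were 18335785 to 31119511 counts in myotubes and 22200097 to 54083215 in myoblasts. All 10 myotube marker genes were higher in myotubes, with summed levels of 8448, 17778 and 20431 CPM in myotube replicates 1 to 3 and 156, 113 and 243 CPM in myoblast replicates 1 to 3. CPM are counts scaled to a common library size, here with TMM factors. The 10 proliferation markers summed to 1059, 420.4 and 325 CPM in myotubes and 3462, 3560.2 and 3626 CPM in myoblasts. Myotube replicate 1 thus had the lowest muscle and the highest proliferation level of the 3 myotube libraries. It also stood highest in each of 5 fibroblast markers (Col1a1, Col3a1, Pdgfra, Dcn and Lum), all called higher in myotubes. Summed, these 5 had 26665, 6943 and 7564 CPM in myotubes and 1267, 1475 and 1128 CPM in myoblasts. Most of the sum was Col3a1, with 24210, 6352 and 6906 CPM in myotubes. Thy1 had 0 counts. Of the 5 myoblast markers Des was called higher and Myf5 lower, and Myod1, Pax7 and Cdh15 were not called. Only Pparg of 5 adipocyte genes and only Cd68 of 6 endothelial or macrophage genes had enough counts to be tested. The 6 endothelial and macrophage genes together held 1.32 to 1.96 CPM before TMM scaling in myotubes and 2.34 to 3.42 CPM in myoblasts. The part of these differences in cell makeup in the results below was not tested, and in such bulk libraries fewer cells of a type and less RNA per cell cannot be told apart.

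More synthetase genes fell than rose in myotubes, in both compartments. Of the 20 cytosolic synthetase genes 12 fell and 0 rose (edgeR, adjusted p under 0.05), where 19.6% of the 15932 tested genes fell and 20.5% rose. Among the mitochondrial genes 6 of 15 fell and 1, Nars2, rose. The median log2 fold change, myotubes over myoblasts, was -0.61 over the cytosolic and -0.49 over the mitochondrial synthetase genes, beside 0.06 over all tested genes. Every member passed the filter on low counts, and the smallest count of any member in any library was 92. The largest fall was that of the valyl enzyme's gene Vars, and the genes that stood nearest to no change were Eprs, Dars and Hars2. The count of 12 changed when some libraries were left out. It was 8 without myotube replicate 1 and 5 without myotube replicate 3. Without myoblast replicates 1, 2 and 3 in turn it was 9, 4 and 3. Over all tested genes 3122 were called lower in the main fit, and 3517, 2172, 3225, 2127 and 2224 in these fits, in that order. The cytosolic median log2 fold change in them was -0.52, -0.62, -0.66, -0.67 and -0.55. Without myotube replicate 2 the count stayed at 12, beside 2570 of all tested genes. The mitochondrial count of 6 was 4 to 6 when a library was left out. The fit was repeated under 13 other settings, 6 of which left out a library and 7 of which changed the scaling, the test, the filter or the block. A value in parentheses after such a setting is the adjusted p there.

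**Figure D1:**
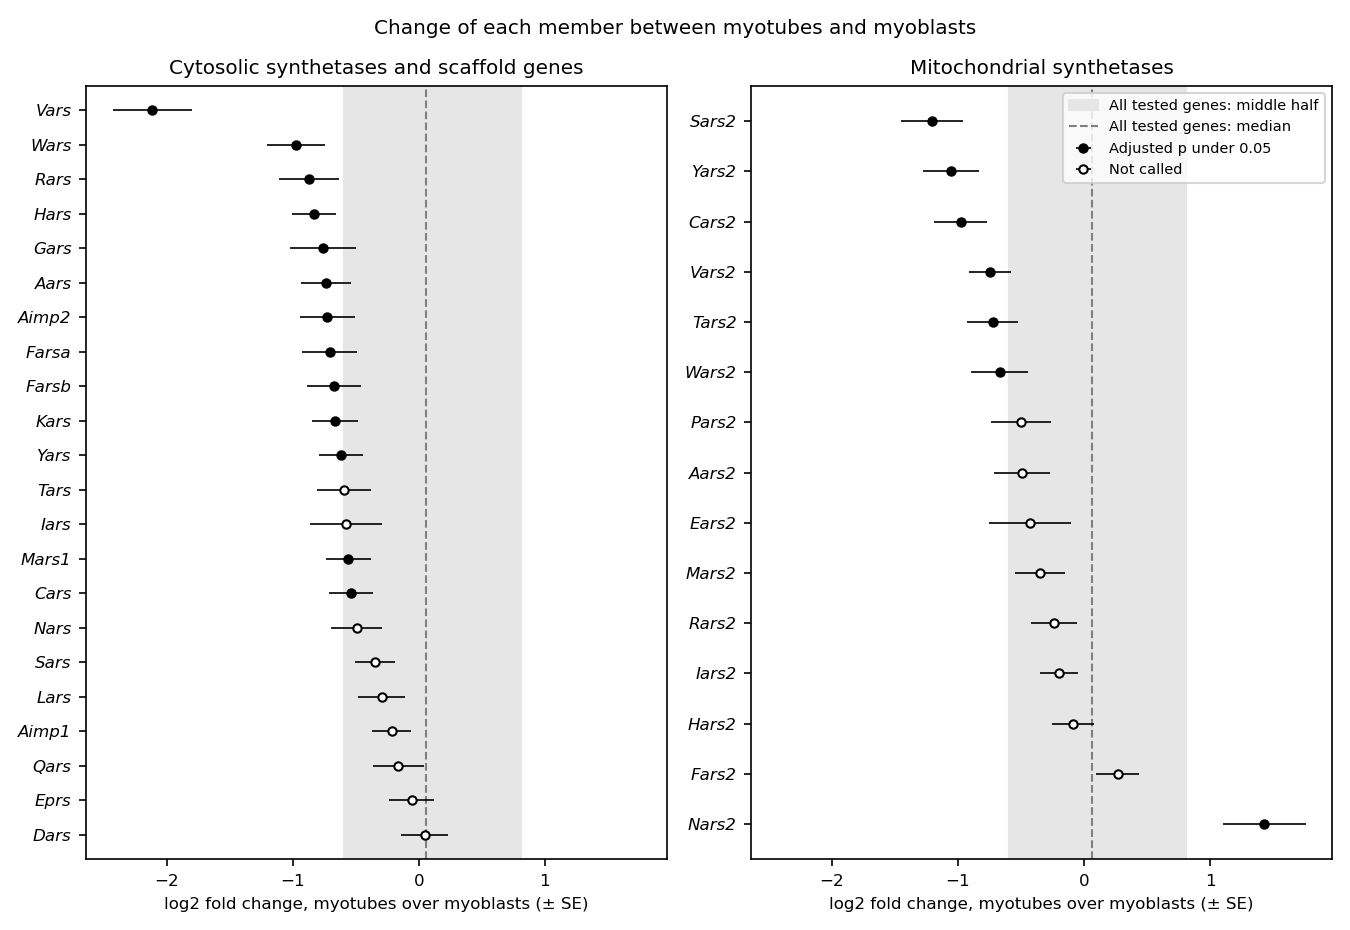
Log2 fold change of each member, myotubes over myoblasts, with its standard error, for the 20 cytosolic synthetase and 2 scaffold genes (left) and the 15 mitochondrial genes (right). Filled points have an adjusted p under 0.05, the dashed line is the median of all 15932 tested genes and the grey band holds their middle 50%. Vars at -2.11 and Nars2 at 1.43 lie at the ends, and most other members lie left of 0.

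Vars (ENSMUSG00000007029, chromosome 17, 35000907 to 35016329 in RefSeq's GRCm38.p6 annotation) encodes the valyl-tRNA synthetase, which travels with elongation factor eEF1. Its level was 57.7, 60.4 and 31.1 CPM in myotube replicates 1 to 3, against 153, 221 and 273 CPM in myoblast replicates 1 to 3. Every myotube library lay far below every myoblast library, and the groups did not overlap. The log2 fold change was -2.11 ± 0.32 (SE, adjusted p = 0.00163), a level 76.9% lower in myotubes, and only 4.01% of tested genes had a lower fold change. Vars stayed called under all 13 other settings, with log2 fold changes of -2.32 to -1.88. Wars, the tryptophanyl enzyme, had 34.8, 60.8 and 43.9 CPM in myotubes and 78.9, 95.4 and 99.4 CPM in myoblasts. Again the groups were apart, with a log2 fold change of -0.97 ± 0.23 (adjusted p = 0.0119). Hars, the histidyl enzyme, stood at 56.4, 75.6 and 76.4 CPM in myotubes and at the closely spaced values of 125, 120.0 and 126 CPM in myoblasts. Its log2 fold change was -0.83 ± 0.18 (adjusted p = 0.00722), and Wars and Hars also kept their calls under all 13 settings. Hars and its mitochondrial counterpart Hars2 lie head to head, with annotated bounds that overlap by 4 bases.

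Among the other free cytosolic enzymes the falls were smaller, and their calls were more often lost when a library was left out. Gars, the glycyl enzyme that serves both cytosol and mitochondria, had 132, 239 and 199 CPM in myotubes and 256, 326 and 385 CPM in myoblasts. Its highest myotube library came close to its lowest myoblast library, and its call was the weakest of the 12 (log2 fold change -0.76 ± 0.26, adjusted p = 0.0485). That call was lost without myotube replicate 1 (0.0616), myotube replicate 3 (0.107), myoblast replicate 2 (0.117) or myoblast replicate 3 (0.145), with median-of-ratios scaling (0.053) and where mean counts below 50 were dropped (0.0575). Aars, the alanyl enzyme, was at 158, 239.8 and 192 CPM in myotubes against 341, 310.4 and 331 CPM in myoblasts, clear of overlap (log2 fold change -0.74 ± 0.20, adjusted p = 0.0206). The Aars call was lost without myotube replicate 3 (0.0799), myoblast replicate 2 (0.0539) or myoblast replicate 3 (0.056). The annotated bounds of Aars and Ddx19b overlap by 3974 bases. The genes of both subunits of the phenylalanyl enzyme fell to a like extent, each without overlap. Farsa, the alpha subunit, had 67.7, 115 and 94.9 CPM in myotubes and 166, 142 and 145 CPM in myoblasts (log2 fold change -0.71 ± 0.22, adjusted p = 0.0331). Farsb, the beta subunit, had 44.5, 65.0 and 59.0 CPM in myotubes and 71.0, 92.4 and 105 CPM in myoblasts (log2 fold change -0.67 ± 0.22, adjusted p = 0.0386). The annotated bounds of Farsb and Sgpp2 overlap by 2332 bases. Farsa lost its call without myotube replicate 3 (0.0916), myoblast replicate 1 (0.0706), myoblast replicate 2 (0.0714) or myoblast replicate 3 (0.069), and Farsb without myotube replicate 1 (0.0525), myotube replicate 3 (0.0871), myoblast replicate 2 (0.105) or myoblast replicate 3 (0.124). Yars, the tyrosyl enzyme, had 76.7, 95.3 and 73.2 CPM in myotubes and 120.1, 118 and 138 CPM in myoblasts, again without overlap (log2 fold change -0.62 ± 0.17, adjusted p = 0.0237). It was lost without myotube replicate 3 (0.105), myoblast replicate 2 (0.0566) or myoblast replicate 3 (0.0773).

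The remaining free enzymes stood near the threshold or above it. Cars, the cysteinyl enzyme, fell to 82.8 ± 8.89 CPM in myotubes, against 120.5 ± 15.9 CPM in myoblasts (SD, n = 3 each), with a log2 fold change of -0.54 ± 0.18 (adjusted p = 0.0394). With the replicate number as a block the Cars call was lost (0.0553), as it was when any of the 6 libraries was left out: myotube replicate 1 (0.0609), myotube replicate 2 (0.0502), myotube replicate 3 (0.132), myoblast replicate 1 (0.0758), myoblast replicate 2 (0.0519) or myoblast replicate 3 (0.09). It was lost as well with no low-count filter (0.0514) and where mean counts below 50 were dropped (0.0546). Tars, the threonyl enzyme, was not called (adjusted p = 0.0549, log2 fold change -0.59 ± 0.21), with 144, 219 and 189 CPM in myotubes and 257, 253 and 324 CPM in myoblasts. Its groups did not overlap, and it was called lower with the replicate block (0.0433) and without myotube replicate 2 (0.0462). It was also called by DESeq2 (0.0404), by limma-voom (0.0456), without a filter (0.041) and with scaling by library size alone (0.0253). Nars, the asparaginyl enzyme, had 212, 303 and 253 CPM in myotubes and 330.1, 337 and 414 CPM in myoblasts. All 3 myotube libraries were below all 3 myoblast libraries, yet the difference was not called (adjusted p = 0.086 for a log2 fold change of -0.49 ± 0.20, or 0.0397 with scaling by library size). Sars, the seryl enzyme, stood at 186, 204 and 174 CPM in myotubes and 247, 233 and 238 CPM in myoblasts, also apart and with no call (log2 fold change -0.35 ± 0.16, adjusted p = 0.114).

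The multi-synthetase complex joins the enzymes for glutamate and proline (Eprs), isoleucine, leucine, methionine, glutamine, arginine, lysine and aspartate around the scaffold proteins of Aimp1 and Aimp2 and of Eef1e1, which is not among the 37. Of the 10 listed complex members 4 fell (Rars, Kars, Mars1 and Aimp2), beside 9 of the 12 free cytosolic synthetases. Of all tested genes 19.6% fell. The difference between the complex and the free share was not tested, and several members lay near the threshold. Rars, the arginyl enzyme, had 85.2, 132 and 142 CPM in myotubes and 193, 207 and 258 CPM in myoblasts. The groups were apart and the log2 fold change was -0.87 ± 0.24 (adjusted p = 0.0201), a call lost without myoblast replicate 2 (0.0512) or myoblast replicate 3 (0.0685). Kars, which encodes both the cytosolic and the mitochondrial lysyl enzyme through alternative splicing, had 107, 136 and 148 CPM in myotubes and 209, 189 and 222 CPM in myoblasts. Its log2 fold change was -0.66 ± 0.18 (adjusted p = 0.0219) and the call was lost, of the 13 settings, only without myoblast replicate 3 (0.0677). Mars1, the methionyl enzyme that also charges the initiator tRNA, had 106, 144 and 116 CPM in myotubes and 179, 171 and 190.0 CPM in myoblasts (log2 fold change -0.56 ± 0.18, adjusted p = 0.0371). Mars1 lost its call without myotube replicate 1 (0.0578), myotube replicate 3 (0.134), myoblast replicate 1 (0.0527), myoblast replicate 2 (0.0818) or myoblast replicate 3 (0.101). The annotated bounds of Mars1 and Ddit3 overlap by 71 bases.

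The 2 scaffold genes differed in how far they moved. Aimp2, needed to hold the complex together, had 22.1, 31.5 and 34.7 CPM in myotubes and 47.3, 42.1 and 56.5 CPM in myoblasts (log2 fold change -0.73 ± 0.22, adjusted p = 0.0295). Its groups did not overlap, and the call was lost without myotube replicate 2 (0.0513), myoblast replicate 1 (0.0511) or myoblast replicate 3 (0.0966). Aimp1, whose product binds tRNA and can be cleaved to a cytokine, had 68.8, 66.9 and 61.4 CPM in myotubes and 69.7, 78.6 and 80.5 CPM in myoblasts. The groups were barely apart and Aimp1 was not called (adjusted p = 0.291, log2 fold change -0.21 ± 0.15). The gene of the remaining scaffold protein, Eef1e1, fell further, to 9.78, 24.6 and 26.8 CPM in myotubes against 37.5, 46.3 and 70.3 CPM in myoblasts (log2 fold change -1.33 ± 0.40, adjusted p = 0.0292). Its lowest value was in myotube replicate 1, and the call was lost without myoblast replicate 2 (0.0616) or myoblast replicate 3 (0.0941) and with no low-count filter (0.0546).

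Several complex enzymes showed no called change. Eprs, which carries the glutamyl and prolyl activities in a single chain, stood at 446, 425 and 413 CPM in myotubes and 461, 394 and 479.6 CPM in myoblasts. The values of the groups interleave (log2 fold change -0.06 ± 0.18, adjusted p = 0.812). Dars, the aspartyl enzyme, had 193, 184 and 198 CPM in myotubes and 147, 201 and 209 CPM in myoblasts, where replicate 1 was the lowest of all 6 libraries (log2 fold change 0.05 ± 0.19, adjusted p = 0.857). Qars, the glutaminyl enzyme, overlapped as well, with 129.7, 95.5 and 112 CPM in myotubes and 153, 117 and 107 CPM in myoblasts (log2 fold change -0.16 ± 0.20, adjusted p = 0.539). Lars, the leucyl enzyme that also senses leucine for mTORC1 signalling, averaged 184 ± 28.8 CPM in myotubes and 226 ± 25.6 CPM in myoblasts (SD, n = 3 each; log2 fold change -0.30 ± 0.19, adjusted p = 0.237). Iars, the isoleucyl enzyme, ranged widely within groups, from 73.6 to 137 CPM in myotubes and from 125 to 216 CPM in myoblasts. Its log2 fold change of -0.58 ± 0.29 was not called (adjusted p = 0.141). By structural class, 6 of 10 class I and 6 of 10 class II cytosolic genes fell, beside 19.6% of all tested genes. Their median log2 fold changes were -0.57 and -0.67, with Eprs counted in class I only. The classes are unrelated folds of the catalytic domain.

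**Figure D2:**
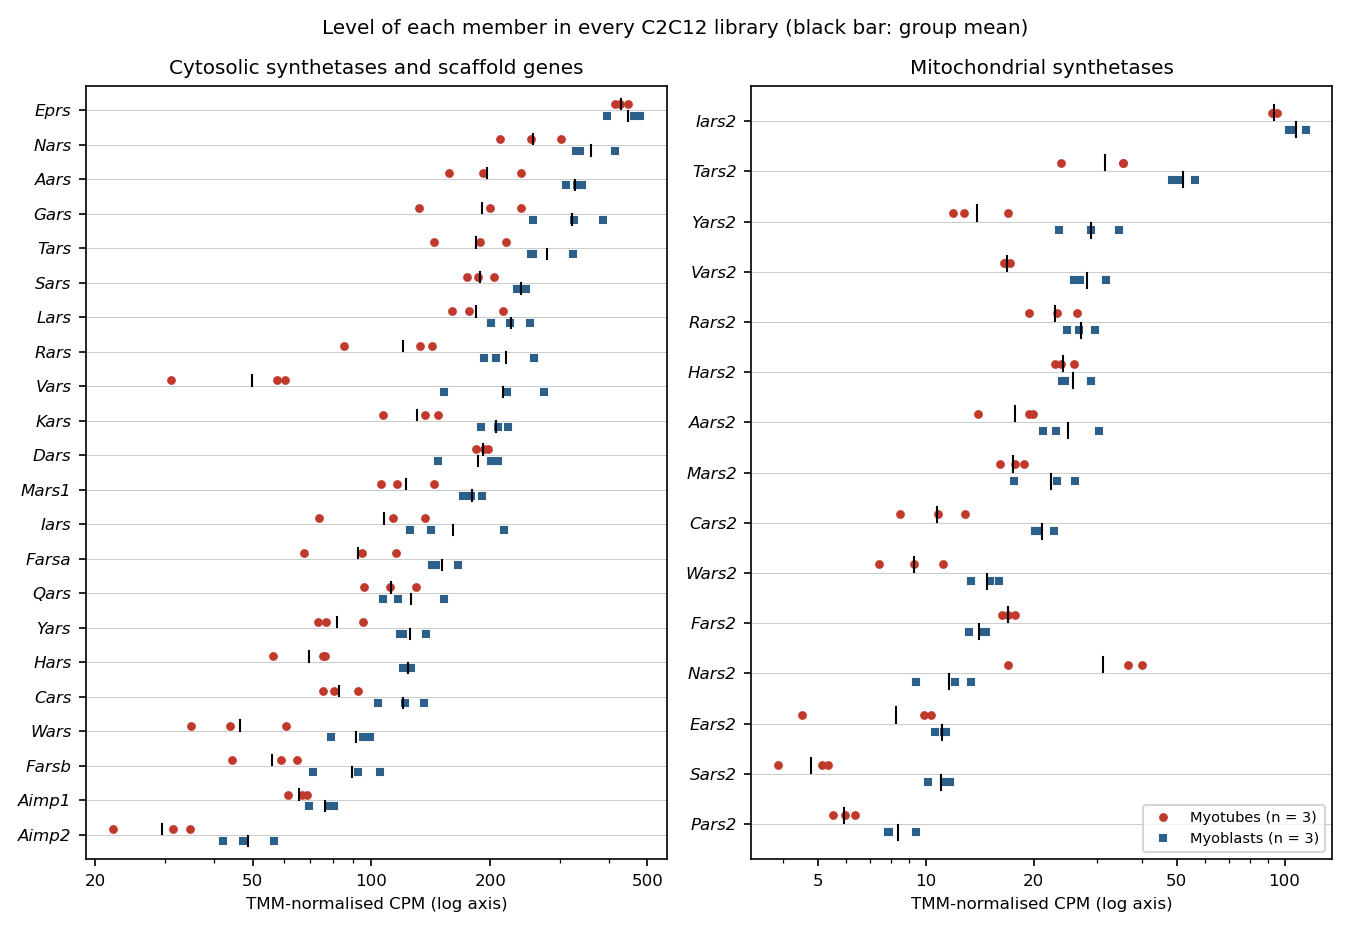
TMM-normalised CPM of each member in every library on a log axis, myotubes as red circles and myoblasts as blue squares (3 libraries each, black bar for the group mean), for cytosolic and scaffold genes (left) and mitochondrial genes (right). Vars is well apart between groups, Eprs and Dars overlap, and Nars2 and Fars2 are the genes whose 3 myotube libraries all lie above the myoblast libraries.

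The promoter windows of the members were searched for the core of the C/EBP-ATF response element, the sequence that ATF4 dimers bind, because 12 cytosolic synthetase genes were listed as ATF4 targets. RefSeq promoter windows (GRCm38.p6) were at hand for 28 of the 37 members, Vars not among them. The other members could not be searched, so whether they hold the core is not known. The core was searched as TGATGNAA on both strands of the 250 bases before the gene's first listed start in RefSeq's promoter table, so that a match on the other strand reads TTNCATCA. It was found in 3 of the 28 windows, those of Aars, Gars and Tars, and in 3.53% of 27025 windows of all genes. A match describes these letters and is no evidence of binding. The 3 windows are shown with the match in capitals, together with the window of Nars2, the only member called higher, which holds no match. Each is written 5′ to 3′ in the direction of transcription. For Aars and Nars2 that start lies inside the outer bounds that RefSeq annotates for the gene over all its transcripts, and for Gars and Tars it is the outer bound.
Aars, chr8:111033592-111033841, plus strand: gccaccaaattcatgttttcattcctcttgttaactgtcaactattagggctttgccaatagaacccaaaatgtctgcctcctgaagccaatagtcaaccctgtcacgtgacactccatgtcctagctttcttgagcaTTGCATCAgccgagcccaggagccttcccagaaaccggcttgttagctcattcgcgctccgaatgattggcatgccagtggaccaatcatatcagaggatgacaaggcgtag
Gars, chr6:55037751-55038000, plus strand: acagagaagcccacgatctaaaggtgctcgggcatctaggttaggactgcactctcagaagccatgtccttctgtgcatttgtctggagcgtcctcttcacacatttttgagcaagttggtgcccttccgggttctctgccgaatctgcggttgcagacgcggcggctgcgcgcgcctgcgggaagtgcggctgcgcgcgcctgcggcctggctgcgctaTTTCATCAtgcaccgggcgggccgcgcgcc
Tars, chr15:11399659-11399908, minus strand: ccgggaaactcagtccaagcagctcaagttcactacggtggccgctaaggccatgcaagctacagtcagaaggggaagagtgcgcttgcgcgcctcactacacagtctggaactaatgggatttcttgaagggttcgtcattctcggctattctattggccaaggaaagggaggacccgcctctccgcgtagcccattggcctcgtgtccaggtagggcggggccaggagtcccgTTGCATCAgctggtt
Nars2, chr7:96951277-96951526, plus strand: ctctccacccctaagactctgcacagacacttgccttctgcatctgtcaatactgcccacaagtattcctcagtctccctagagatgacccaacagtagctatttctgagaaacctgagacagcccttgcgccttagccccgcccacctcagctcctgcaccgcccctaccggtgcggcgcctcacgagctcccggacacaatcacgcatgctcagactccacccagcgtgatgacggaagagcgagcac

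Counted from these listed starts, the matches begin 112 bases upstream in Aars, 30 in Gars and 15 in Tars. Aars and Tars share the letters TTGCATCA and Gars has TTTCATCA. As given above, Aars and Gars fell and Tars was near the threshold. The E-box CACGTG, a site of MYC and related factors, was found in the windows of Aars, Farsb and Iars (3 of 28, and 6.05% of all windows). The palindrome CGCATGCG, the core of the site of NRF1, a regulator of nuclear genes for mitochondria, was found in Vars2 and Wars2 (2 of 28, and 1.58% of all windows). Of the 12 listed ATF4 targets among the cytosolic synthetases 6 fell (Wars, Gars, Aars, Yars, Mars1 and Cars). So did 6 of the other 8 (Vars, Rars, Hars, Farsa, Farsb and Kars), beside 19.6% of all tested genes. The difference between the shares of targets and others was not tested.

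Mitochondrial synthetase genes moved in both directions. Sars2 (ENSMUSG00000070699, chromosome 7, 28741957 to 28753879), the seryl enzyme of mitochondria, had 3.87, 5.12 and 5.33 CPM in myotubes and 11.2, 11.7 and 10.1 CPM in myoblasts. Its groups were far apart, with a log2 fold change of -1.21 ± 0.24 (adjusted p = 0.00608). Yars2, the tyrosyl enzyme whose loss in humans causes myopathy with lactic acidosis and anaemia, had 11.9, 16.9 and 12.8 CPM in myotubes and 23.5, 28.8 and 34.5 CPM in myoblasts (log2 fold change -1.06 ± 0.22, adjusted p = 0.00727). Cars2, for cysteine, had 8.47, 12.8 and 10.8 CPM in myotubes and 22.7, 20.5 and 20.2 CPM in myoblasts (log2 fold change -0.98 ± 0.21, adjusted p = 0.00784). Vars2, for valine, was tightly spaced in myotubes at 16.6, 17.2 and 16.7 CPM, below the myoblast values of 31.8, 26.9 and 25.8 CPM (log2 fold change -0.74 ± 0.17, adjusted p = 0.00962). These 4 genes kept their calls under all 13 other settings. Tars2, for threonine, fell to 23.7, 35.4 and 35.5 CPM in myotubes against 56.4, 48.6 and 51.2 CPM in myoblasts (log2 fold change -0.72 ± 0.20, adjusted p = 0.0224), a call lost without myoblast replicate 1 (0.0522), myoblast replicate 2 (0.0524) or myoblast replicate 3 (0.0556). Wars2, for tryptophan, had 11.1, 9.29 and 7.42 CPM in myotubes and 13.3, 15.1 and 16.0 CPM in myoblasts and the weakest call of the 6 (log2 fold change -0.67 ± 0.22, adjusted p = 0.0441). Wars2 was not called with the replicate block (0.06), with limma-voom (0.0503), without a filter (0.071), where mean counts below 50 were dropped (0.0553), or without myotube replicate 2 (0.0945), myotube replicate 3 (0.146), myoblast replicate 2 (0.118) or myoblast replicate 3 (0.122).

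Nars2 (ENSMUSG00000018995, chromosome 7, 96950839 to 97064758), the asparaginyl enzyme of mitochondria, was the only one of the 37 called higher. It had 17.0, 40.1 and 36.5 CPM in myotubes and 9.38, 12.1 and 13.3 CPM in myoblasts. Replicate 1 was the lowest myotube library but still above every myoblast library. The log2 fold change was 1.43 ± 0.33 (adjusted p = 0.0101), and the call held under all 13 settings with log2 fold changes of 1.17 to 1.71, the largest of them (1.71) without myotube replicate 1. Fars2, the mitochondrial phenylalanyl enzyme, had 17.0, 16.3 and 17.7 CPM in myotubes and 13.2, 14.7 and 14.4 CPM in myoblasts. Its 3 myotube libraries were above the myoblast libraries, but it was not called (adjusted p = 0.243, log2 fold change 0.27 ± 0.17). For 28.7% of all tested genes the 3 myotube libraries lay above the 3 myoblast libraries, and for 27.2% they lay below. Against that background, 2 of the 15 mitochondrial genes were apart upwards and 10 downwards, and 0 of the 20 cytosolic synthetase genes were apart upwards and 15 downwards.

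The other mitochondrial synthetase genes were not called in any setting. Iars2, for isoleucine, had the highest level per length of the 15 and stood at 92.4, 95.5 and 93.0 CPM in myotubes and 105, 114 and 103 CPM in myoblasts. The groups were just apart, with a log2 fold change of -0.20 ± 0.15 (adjusted p = 0.307). Ears2, for glutamate, was at 4.52 CPM in myotube replicate 1 against 10.3 and 9.85 CPM in replicates 2 and 3, while myoblasts had 11.4, 10.6 and 11.2 CPM. Its log2 fold change of -0.43 ± 0.32 was -0.16 without that library. Pars2, for proline, and Aars2, for alanine, had log2 fold changes of -0.50 ± 0.24 and -0.49 ± 0.22, with no overlap between groups. Mars2, for methionine, Rars2, for arginine, and Hars2, for histidine, overlapped between groups, at -0.35 ± 0.20, -0.24 ± 0.18 and -0.09 ± 0.17. Adjusted p-values of these 7 genes ranged from 0.111 to 0.69. A value that misses the threshold does not show that the level was the same.

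Enzymes for the same amino acid in the 2 compartments were then set against each other as the log2 ratio of cytosolic to mitochondrial CPM, each plus 0.5. With 3 libraries against 3 an exact two-sided permutation test cannot give a p below 0.1, so none of the 15 pairs could pass, and the smallest adjusted p over the pairs was 0.167. The asparaginyl pair moved most, with ratios of 3.60, 2.90 and 2.78 in myotubes and 5.07, 4.74 and 4.91 in myoblasts. All myotube ratios were lower, by 1.81 on average (exact permutation p = 0.1). For valine the ratio was 1.77, 1.78 and 0.88 in myotubes and 2.25, 3.02 and 3.38 in myoblasts, again apart. Phenylalanine (Farsa to Fars2, mean difference -0.99), histidine (-0.76) and arginine (-0.65) also had every myotube ratio below every myoblast ratio. The opposite held for serine, where Sars to Sars2 was 5.42, 5.19 and 4.91 in myotubes and 4.40, 4.26 and 4.49 in myoblasts. Cysteine (0.43), tyrosine (0.41) and proline (Eprs to Pars2, 0.41) likewise had every myotube ratio above. In the other 6 pairs the groups overlapped. Thus 5 of the 15 pairs were apart downwards and 4 upwards. Of single tested genes 27.2% were apart downwards and 28.7% upwards, so such separation was common in these libraries. The share among other pairs of genes was not computed. Leaving out any library in turn, or a pseudocount of 2, changed the direction of no pair.

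**Figure D3:**
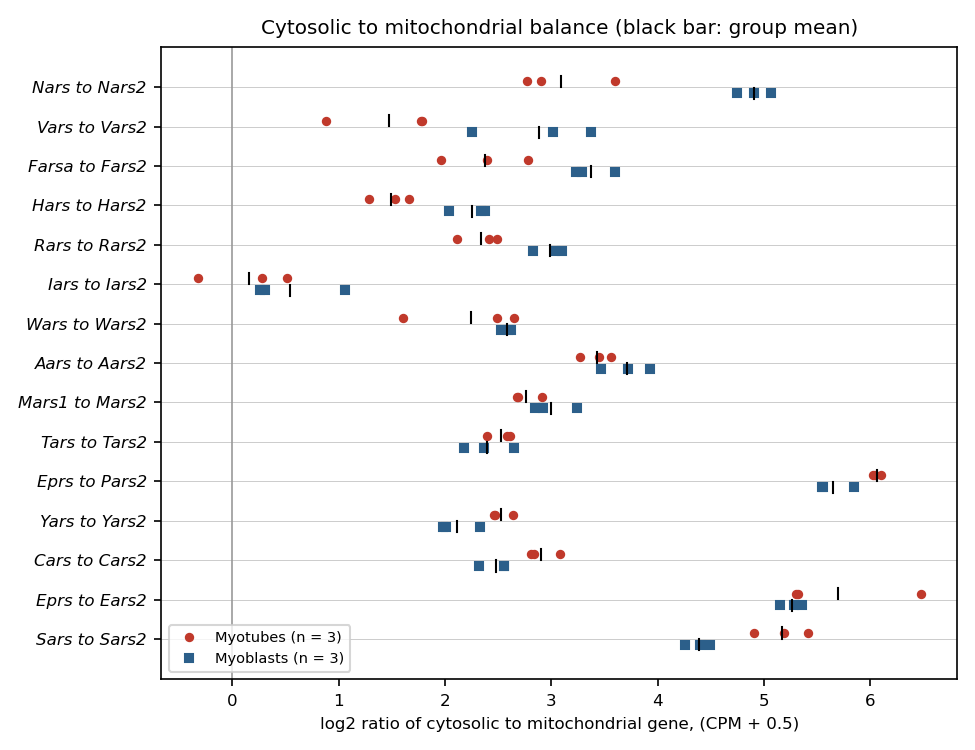
Log2 ratio of the cytosolic to the mitochondrial gene for the same amino acid in each library, myotubes as red circles and myoblasts as blue squares (3 each, black bar for the mean). Pairs are ordered by the difference, from asparagine, where all myotube ratios are lower, to serine, where all are higher.

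Per length of gene (RPKM, from the deposited gene lengths), cytosolic and mitochondrial members formed nearly separate ranges. In myoblasts every cytosolic and scaffold gene was above every mitochondrial gene. In myotubes 1 mitochondrial gene, Iars2 at 10.5 ± 0.181 RPKM (SD, n = 3), exceeded the lowest cytosolic gene, Vars at 8.87 ± 2.89 RPKM. Gars ranked first of the 37 in both groups, with 60.9 ± 17.4 RPKM in myotubes and 103 ± 20.7 RPKM in myoblasts, and Nars second, with 58.7 ± 10.5 RPKM in myotubes and 82.7 ± 10.7 RPKM in myoblasts. Vars held rank 23 in myotubes and rank 11 in myoblasts, where it had 38.4 ± 10.7 RPKM. Dars held rank 3 in myotubes and rank 9 in myoblasts, with nearly the same level in both (44.0 ± 1.54 RPKM in myotubes and 42.6 ± 7.71 RPKM in myoblasts). Nars2 held rank 27 in myotubes with 4.48 ± 1.79 RPKM and the last rank, 37, in myoblasts with 1.66 ± 0.289 RPKM. Sars2 had the last rank in myotubes, at 1.44 ± 0.239 RPKM, and rank 30 in myoblasts, at 3.32 ± 0.244 RPKM. The deposited length of Eprs, 18102 bases, is the longest of the members, which lowers its level per length.

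The summed level of the 20 cytosolic synthetase genes was 2544, 3240.2 and 2884 CPM in myotube replicates 1 to 3 and 3949.5, 3997 and 4634 CPM in myoblast replicates 1 to 3. That of the 15 mitochondrial genes was 285, 353 and 338 CPM in myotubes and 412, 406 and 409 CPM in myoblasts. Neither sum overlapped between groups. Myotube replicate 1 was the lowest of the 3 myotube libraries for 27 of the 37 members, where it was the lowest for 42.7% of all tested genes. The same library had the lowest myotube marker and the highest proliferation marker sums, and the part of this in its synthetase levels was not tested. Without it the median log2 fold change was -0.52 over the cytosolic and -0.37 over the mitochondrial synthetase genes.

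**Figure D4:**
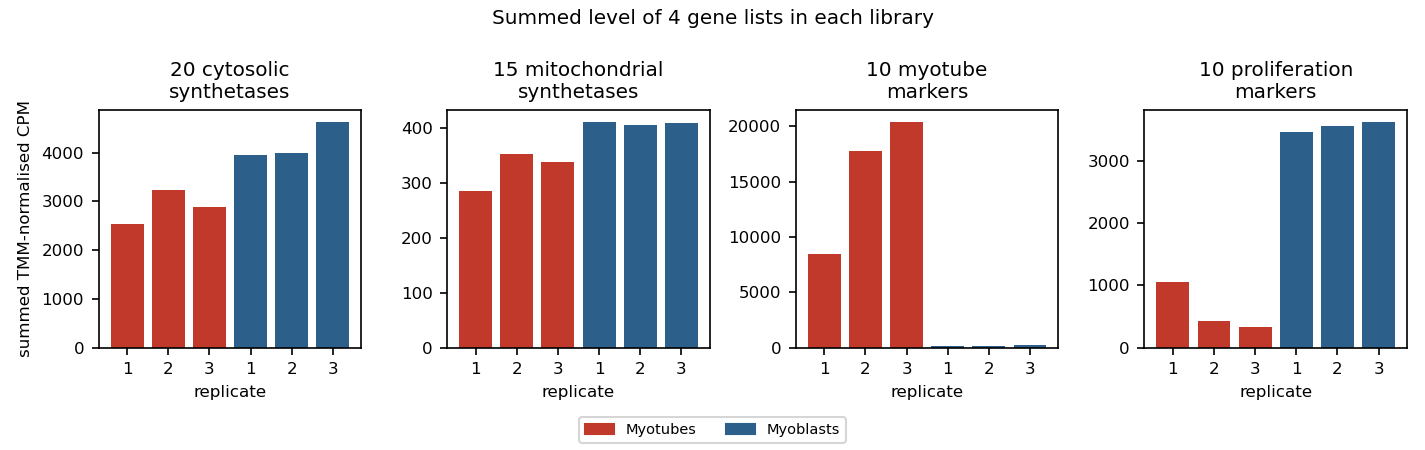
Summed TMM-normalised CPM of the 20 cytosolic synthetase genes, the 15 mitochondrial synthetase genes, 10 myotube markers and 10 proliferation markers in each library, myotubes in red and myoblasts in blue, each panel with its own axis from 0. Myotube replicate 1 is the lowest myotube library in the first 3 panels and the highest in the last.

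Of 15 other genes of tRNA charging and handling 4 fell (Eef1e1, Qrsl1, Xpot and Ptrh2) and 1, Dtd1, rose, beside 19.6% of all tested genes lower and 20.5% higher, so the share that fell was near that background. Their median log2 fold change was -0.18. Xpot, the exporter of mature tRNA from the nucleus, had 98.5, 150.3 and 123 CPM in myotubes and 190.2, 211 and 253 CPM in myoblasts (log2 fold change -0.82 ± 0.21, adjusted p = 0.017), a call lost without myotube replicate 3 (0.0611) or myoblast replicate 3 (0.0599). Qrsl1, a subunit of the mitochondrial amidotransferase that makes glutaminyl-tRNA in place of a mitochondrial glutaminyl synthetase, had 6.15, 10.1 and 8.81 CPM in myotubes and 14.5, 15.6 and 16.2 CPM in myoblasts (log2 fold change -0.88 ± 0.24, adjusted p = 0.0202). Its call was lost without myotube replicate 3 (0.0576), myoblast replicate 2 (0.065) or myoblast replicate 3 (0.0619). Ptrh2, a mitochondrial peptidyl-tRNA hydrolase, had 21.8, 20.8 and 18.1 CPM in myotubes and 27.6, 28.2 and 28.4 CPM in myoblasts, without overlap (log2 fold change -0.47 ± 0.16, adjusted p = 0.0477). Its call was lost with the replicate block (0.0641), with limma-voom (0.056), with no low-count filter (0.115), where mean counts below 50 were dropped (0.0626), or without myotube replicate 2 (0.0928), myotube replicate 3 (0.176), myoblast replicate 1 (0.0629), myoblast replicate 2 (0.121) or myoblast replicate 3 (0.106). Dtd1, a proofreading enzyme that removes D-amino acids from tRNA, had 22.2, 16.3 and 13.7 CPM in myotubes and 7.24, 5.87 and 4.59 CPM in myoblasts. All myotube libraries were higher, with a log2 fold change of 1.55 ± 0.27 (adjusted p = 0.00334). Tarsl2, a paralog of Tars, had 30.9, 15.4 and 18.6 CPM in myotubes and 24.7, 26.0 and 22.7 CPM in myoblasts and no call (adjusted p = 0.615, log2 fold change -0.18 ± 0.27). Replicate 1 was the highest myotube library for Tarsl2, and without it the gene was called lower (-0.55, adjusted p = 0.0327).

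Atf4 itself was not called, at 271, 374 and 281 CPM in myotubes and 343, 369 and 396 CPM in myoblasts (log2 fold change -0.26 ± 0.20, adjusted p = 0.311). ATF4 is regulated largely by translation, so its RNA level does not measure its activity. Of 21 listed genes of the ATF4 pathway other than synthetases, 10 fell and 1 rose, beside the same 19.6% and 20.5% of all tested genes, with a median log2 fold change of -0.87. Asns, which makes asparagine, had 73.0, 91.8 and 66.1 CPM in myotubes and 133, 137 and 174 CPM in myoblasts, without overlap (log2 fold change -0.94 ± 0.20, adjusted p = 0.00703). The largest falls in the list were those of the cystine transporter gene Slc7a11 (-2.62 ± 0.41), of Cth (-2.19 ± 0.41), of mitochondrial Shmt2 (-2.10 ± 0.22) and of the serine synthesis gene Phgdh (-2.08 ± 0.20), all log2 fold changes with SE. The single gene that rose was the lipoprotein receptor gene Vldlr, at 4.85 ± 0.55. The remaining 10 of the 21, Atf4 among them, were not called. Of these, Chac1 (0.07), Ddit3 (0.08), Trib3 (0.09) and Ddit4 (0.62) had log2 fold changes above 0. Atf5 (-0.11), Slc38a2 (-0.14), Slc3a2 (-0.32), Cebpb (-0.55) and Sesn2 (-0.94) were below 0, as Atf4 was. The count over both lists, 14 lower and 2 higher, was 9 lower without myotube replicate 3, myoblast replicate 2 or myoblast replicate 3, with 2 higher in each case. Over all tested genes 2172, 2127 and 2224 were called lower in these fits, in that order, beside 3122 in the main fit.

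**Figure D5:**
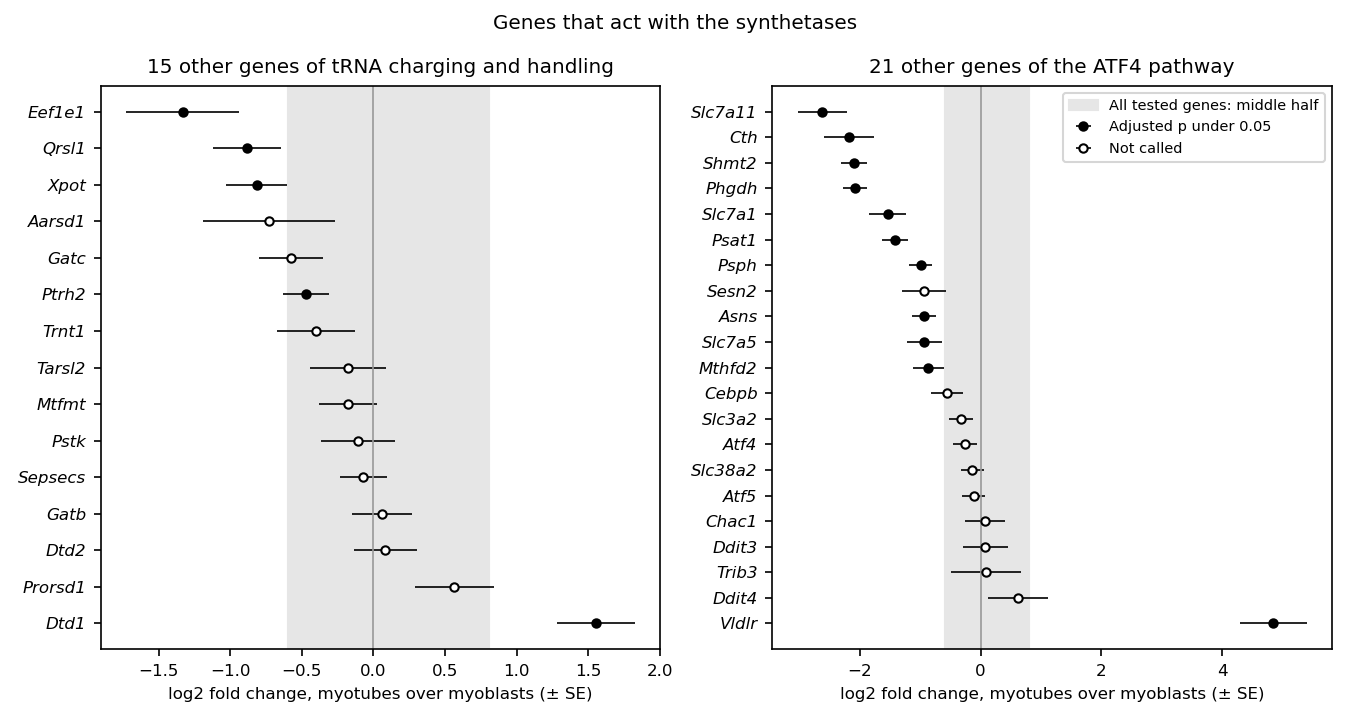
Log2 fold change with its standard error, myotubes over myoblasts, of 15 other genes of tRNA charging and handling (left) and 21 other genes of the ATF4 pathway (right). Filled points have an adjusted p under 0.05 and the grey band holds the middle 50% of all tested genes. Dtd1 and Vldlr are the points called higher, and Atf4 lies inside the band.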

How the data were processed

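Total RNA of C2C12 myotubes and myoblasts was sequenced with 3 libraries per group, from a stranded, rRNA-depleting kit per the labels' protocols. The submitters' processing notes name STAR 2.5.1b, featureCounts 1.5.1, Salmon 0.12.0, DESeq2 1.18.1 and the build mm10, with no role given. The deposited table holds raw counts per gene for 55385 genes, with gene lengths. Whether counting used strand was not given in the sources used here. Genes with overlapping bounds are therefore uncertain. The largest overlaps were those of Aars with Ddx19b (3974 bases), Farsb with Sgpp2 (2332 bases) and Aimp1 with Tbck (278 bases). Iars2 overlapped Rab3gap2 by 115 bases and Mars1 overlapped Ddit3 by 71 bases. Smaller were those of Wars with Wdr25 (24), Aimp2 with Eif2ak1 (14), Rars2 with Orc3 (7) and Hars with Hars2 (4). The deposited normalised counts and the snoRNA tables were not used.

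All genes were fitted with edgeR 4.0.16 (R 4.3.3) using TMM factors, filterByExpr and the robust quasi-likelihood F-test without covariates, and p-values were adjusted over the 15932 tested genes by the Benjamini-Hochberg method. Standard errors came from the fold change and its F statistic. Levels are TMM-normalised CPM or RPKM. The scripts were tested on simulated data, where the rule for passing covered only changes larger than those of most members. Alternatives were DESeq2 1.42.0, limma-voom (limma 3.58.1), other scalings and filters, a replicate block and leaving out each library. Members and lists were chosen with earlier results of these data known. Full values were given to called members, up to 6 per direction and compartment, to the most abundant uncalled members, and to up to 4 called genes per direction of each further list plus Atf4, Asns, Eef1e1 and Tarsl2. Some further genes of tRNA handling are not reported here. Values for the other members and for the uncalled genes of the ATF4 list were added after they were seen.

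Between libraries with the same replicate number, the deviations from the group mean had correlations of 0.232, 0.189 and 0.17. A pair with different numbers, myotube 2 and myoblast 3, had a higher correlation of 0.358. Each same-number correlation was over 0.1, and the replicate number was used as a block in an alternative fit only. The main fit and the permutation test did not pair the libraries. The labels do not say what a number marks. No pair of libraries within a group agreed within sampling noise (the lowest chi-square over its degrees of freedom was 106).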

Additional observations from a re-analysis of the deposited data

How the results depend on the processing

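Across the 13 alternatives 8 of the 20 called members kept their calls (Vars, Wars, Hars, Sars2, Yars2, Cars2, Vars2 and Nars2) and 12 lost them in at least 1. Of the 17 uncalled members 15 were called in none, while Tars and Nars were in some. Leaving out a library in turn gave 3 to 12 cytosolic, 0 to 1 scaffold and 4 to 6 mitochondrial genes lower, 9 to 16 of the other tRNA and ATF4 genes lower, and medians of -0.78 to -0.52 (cytosolic) and -0.62 to -0.37 (mitochondrial). Over all tested genes (16325 to 16960 in these fits) 2127 to 3517 were called lower, beside 3122 of 15932 in the main fit. With a library left out, the remaining libraries of the smaller arm are assumed to vary like those of the other. Scaling by library size alone moved the median of all genes by -0.13 and the mitochondrial median to -0.62, and gave Dars -0.067 on the log2 scale. Dars ranged from -0.11 (without myoblast replicate 1) to 0.12 (without myoblast replicate 3), and Eprs was at 0.0059 where mean counts below 50 were dropped. With the replicate block 12 cytosolic and 5 mitochondrial genes were lower, beside 3322 of all 15932 tested genes. Tars was then called, at -0.61 (adjusted p = 0.0433), and Cars and Wars2 were not (0.0553 and 0.06); no other member's call changed. The cause of these changes was not tested. With 3 libraries a group, small changes are the least certain.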
